A study of Mus musculus with 4 samples.

Results

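The Runx, Sp7 and Dlx genes encode transcription factors that steer mesenchymal cells towards bone and chondrocytes towards hypertrophy. The 8 genes Runx1, Runx2, Runx3, Cbfb, Sp7, Dlx3, Dlx5 and Dlx6 were chosen by name, with earlier results of these data known. All 8 were found among the 24499 gene symbols of the deposited time course. Their levels were followed in a mouse cell line of growth plate-like chondrocytes (GPLC), wild type in every group, at day 1, day 3, day 5 and day 10 of culture. All groups were kept in a serum medium with ascorbic acid and an insulin, transferrin and selenium supplement. The labels call GPLC a cell line and say no more of how it was made. They give 1 sample per day, while the table has 3 libraries for day 1 (numbered 1, 3 and 4) and 4 each for days 3, 5 and 10 (numbered 1 to 4). The extraction protocol speaks of sorted cells without naming a gate. The study compared the time points with each other.

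Runx proteins bind DNA through the Runt domain, and CBFβ, the product of Cbfb, binds that domain without touching DNA itself and stabilises it on its sites. Runx2 is required for osteoblast formation and drives chondrocyte hypertrophy, with Runx3 acting alongside it in cartilage, while Runx1 is best known from blood formation and is also made in skeletal progenitors. Sp7, also called osterix, is a zinc finger factor that acts downstream of Runx2 and is needed for osteoblasts to mature. Dlx3, Dlx5 and Dlx6 are homeodomain factors. Dlx5 and Dlx6 lie next to each other in the genome, act in limb and skeletal development and can activate Runx2 and Sp7.

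The start sites of the 3 Runx genes are shown because they share a motif for the family's own proteins. RefSeq promoters on GRCm38.p6, from 250 bases before to 50 bases after a start site, were at hand for Runx1, Runx2, Runx3 and Cbfb (6 promoters for 4 of the 8 genes). The RUNX core TGTGGT, searched on both strands (ACCACA on the other), occurred 3 times in the Runx2 promoter and 2 times in the upstream promoters of Runx1 and Runx3. Among all 32851 promoters of that length, 16.8% held it at least once, 1.81% at least 2 times and 0.183% at least 3 times. In all 3 Runx genes a pair of these motifs lay on the same strand with first bases 8 apart. That spacing was noticed after the sequences were seen. It occurred in 7 of the 32851 promoters (0.0213%), of which 3 belong to the Runx genes and 1, Gm16225, covers the same site as the Runx3 window from the opposite strand. The 30-base windows below run 5′ to 3′ on the strand of the gene, with the motifs in capitals.
Runx1: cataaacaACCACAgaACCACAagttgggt
Runx2: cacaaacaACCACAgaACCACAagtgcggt
Runx3: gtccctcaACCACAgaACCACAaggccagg
The Runx1 window lies at chr16:92826025-92826054 on the minus strand, and its motifs start 29 and 37 bases into the transcript. The Runx2 window lies at chr17:44814583-44814612 on the minus strand, with motifs starting at bases 24 and 32. The Runx3 window lies at chr4:135120503-135120532 on the plus strand, with motifs starting at -134 and -126 from the start site. The third Runx2 match stood at -80 from the RefSeq start site. GENCODE begins the gene further upstream, at 44814797. That match and part of the bases before the RefSeq start thus lie inside the GENCODE gene. The 250 bases before the RefSeq start, at chr17:44814628-44814877 (minus strand), are shown with the motif in capitals.
Runx2 upstream: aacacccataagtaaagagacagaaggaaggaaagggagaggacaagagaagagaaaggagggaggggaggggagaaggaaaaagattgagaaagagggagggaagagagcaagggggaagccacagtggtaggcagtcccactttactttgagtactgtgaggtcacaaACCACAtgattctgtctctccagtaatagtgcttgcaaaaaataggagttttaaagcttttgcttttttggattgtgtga
The downstream promoters of Runx1 and Runx3 and the promoter of Cbfb held no TGTGGT. The GC box GGGCGG of the SP family, found in 35.7% of all promoters on either strand, occurred 3 times in the downstream Runx3 promoter and 4 times in that of Cbfb. The homeodomain core TAATTA, found in 5.29% of promoters, was in none of these 6 windows. A match is a string of letters and was not tested for binding, and the gene-level table does not separate transcripts from different start sites.

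Each library had between 12492537 and 18841621 gene-assigned reads, so that 1 read was worth 0.0523 to 0.0787 CPM, the authors' library-scaled unit. Differences below are day means of log2(CPM + 1), tested with limma over all 12109 genes with a mean of at least 1 CPM over the 4 days, and all 8 genes passed that filter. Adjusted p-values are limma's, adjusted by Benjamini-Hochberg over all 12109 genes, with an error given as SE. Unless a block is named, the fit did not pair libraries by number. The labels do not say whether libraries came from separate cultures, so the p-values measure library-to-library spread only, possibly technical in part. The defining genes of cartilage were present in every library, with Col2a1 at 1262 CPM or more and Sox9 at 64.8 CPM or more. Blood cells also make Runx1 and Runx3. Of 14 white blood cell markers several, Itgam, Tyrobp, Cd3e and Ikzf1 among them, were at 0 in all libraries, and the summed level of the list was 4.68 to 5.44 CPM at day 1, 3.93 to 6.41 CPM at day 3, 3.69 to 7.74 CPM at day 5 and 3.77 to 6.80 CPM at day 10. Cd68, of the same list, was present in every library at 2.11 to 6.46 CPM. The part of these cells in the Runx1 and Runx3 results was not tested. These are bulk samples, in which fewer cells of a type and less RNA per cell cannot be told apart.

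**Figure D1:**
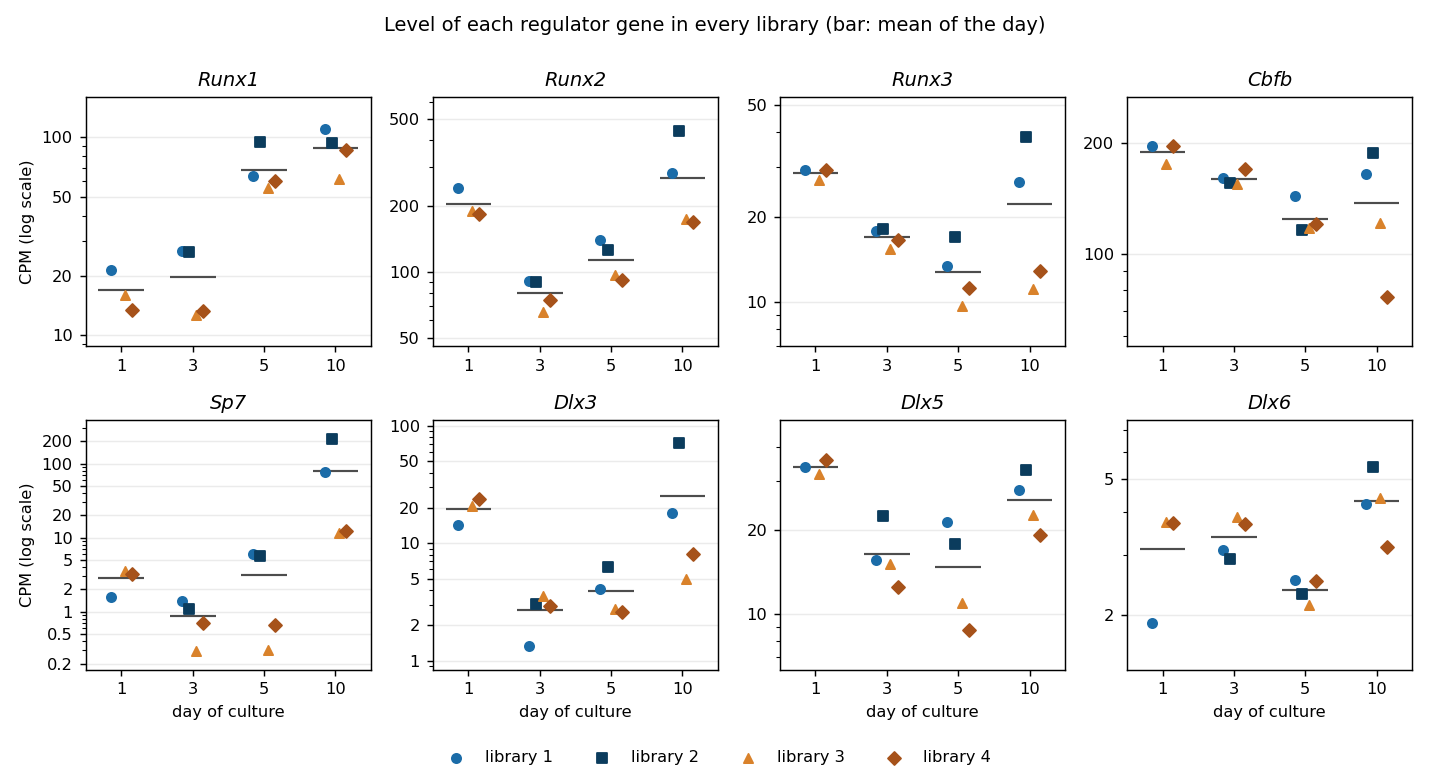
CPM on a log axis for the 8 genes in every library, by day of culture, with a mark for each library number and a bar for the mean of the day. Runx1 steps up between days 3 and 5, while Runx2, Dlx3 and Dlx5 are lower on day 3 than on day 1. Sp7 on day 10 spans 11.6 to 214 CPM.

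Runx2 fell from a mean of 205 CPM to 80.01 CPM by day 3, and its day 10 libraries lay on both sides of the day 1 range. Runx1 did not pass the test for day 3 against day 1, rose 3.46-fold between days 3 and 5 and stayed high. Runx3 fell by day 5, with a smaller range.

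Runx2 lies on chromosome 17 at 44495987 to 44814797 (GRCm38, minus strand). Of its 8837 exon bases, 519 are shared with Runx2os1 on the opposite strand. Runx2os1 is not among the deposited gene symbols, so its level is not known. On day 1 libraries 1, 3 and 4 held 241, 189.7 and 183 CPM of Runx2. On day 3 libraries 1 to 4 held 90.4, 90.1, 65.3 and 74.2 CPM, all under the lowest day 1 library. Day 5 stood at 139, 126, 96.7 and 91.9 CPM, between both earlier days without overlap with either, and day 10 at 284, 442, 174 and 169 CPM, where libraries 3 and 4 lay below all of day 1 and libraries 1 and 2 above it. The fall from day 1 to day 3 was -1.35 ± 0.27 (log2, adjusted p = 0.00197, n = 3 and 4 libraries). Day 5 remained lower than day 1 (-0.86 ± 0.27, adjusted p = 0.0163), although the call was lost without library 1 of day 1 (adjusted p = 0.0718) or without the libraries numbered 1, 3 or 4 of every day (0.0846, 0.0747 and 0.0608). The call was also lost with libraries 3 and 4 of each day averaged. From day 5 to day 10 Runx2 rose by 1.14 ± 0.25 (adjusted p = 0.0172), a call lost with libraries 3 and 4 of each day averaged (adjusted p = 0.0803), without library 3 or library 4 of day 5 (0.0643 and 0.0636) and without the libraries numbered 1, 3 or 4 (0.0867, 0.0813 and 0.0967). It was 1.63 ± 0.25 above day 3 on day 10 (adjusted p = 0.000479). From day 1 to day 10 the difference was 0.28 ± 0.27, with a 95% interval of -0.30 to 0.86 (adjusted p = 0.409). The step from day 3 to day 5 missed the threshold (0.49 ± 0.25, adjusted p = 0.255), but passed with the library number as a block (adjusted p = 0.0498).

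Runx1 lies on chromosome 16 at 92601466 to 92826149 (minus strand). Of its 12025 exon bases, 106 are shared with Gm26626 on the opposite strand, which is not among the deposited gene symbols. The day 1 libraries held 21.3, 15.9 and 13.4 CPM of Runx1 and the day 3 libraries 26.7, 26.4, 12.7 and 13.2 CPM, which overlapped. On day 5 the libraries held 63.6, 94.1, 55.4 and 59.9 CPM and on day 10 they held 110.4, 93.2, 61.1 and 86.3 CPM. Every library of days 5 and 10 was above every library of days 1 and 3, and days 5 and 10 overlapped each other. Runx1 rose by 1.79 ± 0.26 from day 3 to day 5 (adjusted p = 0.00149), a call lost without the libraries numbered 3 or 4 of every day (adjusted p = 0.0578 and 0.0501). It was 2.31 ± 0.28 above day 1 on day 10 (adjusted p = 1.27e-05). Neither day 3 against day 1 (0.16 ± 0.28, 95% interval -0.43 to 0.76) nor day 10 against day 5 (0.36 ± 0.26, -0.19 to 0.91) passed the test.

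Runx3 lies on chromosome 4 at 135120652 to 135177990 (plus strand). It held 29.4, 27.1 and 29.3 CPM on day 1, then 17.8, 18.2, 15.5 and 16.5 CPM on day 3, all below day 1. On day 5 it held 13.4, 17.0, 9.69 and 11.2 CPM, and on day 10 it held 26.7, 38.3, 11.1 and 12.9 CPM. Day 10 thus ran from below the lowest day 3 library to above the highest day 1 library. Day 5 was lower than day 1 by the test (-1.13 ± 0.31, adjusted p = 0.0077). That call was lost without the libraries numbered 1 or 4 of every day (adjusted p = 0.0562 and 0.0547). Day 3 against day 1 missed it (-0.72 ± 0.31, adjusted p = 0.0914) and passed with the library number as a block (-0.88, adjusted p = 0.0107). It also passed without library 2 of day 10 (adjusted p = 0.0287). Compared with day 1, day 10 stood at -0.52 ± 0.31 (adjusted p = 0.182), and without library 2 of day 10 it was -0.83 (adjusted p = 0.0134).

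Levels of the 3 Runx genes were set side by side per kilobase of merged GENCODE M21 exons (12025 bases for Runx1, 8837 for Runx2 and 5003 for Runx3). On this scale Runx2 made up 76.3 ± 1.65% of the summed Runx level on day 1 (SD, n = 3 libraries), Runx3 19.1 ± 2.17% and Runx1 4.59 ± 0.536%. By day 5 the share of Runx1 was 26.9 ± 3.55% (n = 4) and that of Runx3 12.1 ± 1.09%, so that Runx1 and Runx3 had changed places. The Runx1 share lay between 4.01 and 5.07% on day 1, was 8.61 to 13.9% by day 3, and reached 22.3 to 30.7% by day 5, without overlap. On day 10 Runx2 was back at 71.1 ± 4.49%, and Runx1 spanned 11.8 to 24.8%. Runx2 held the largest share in each of the 15 libraries.

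**Figure D2:**
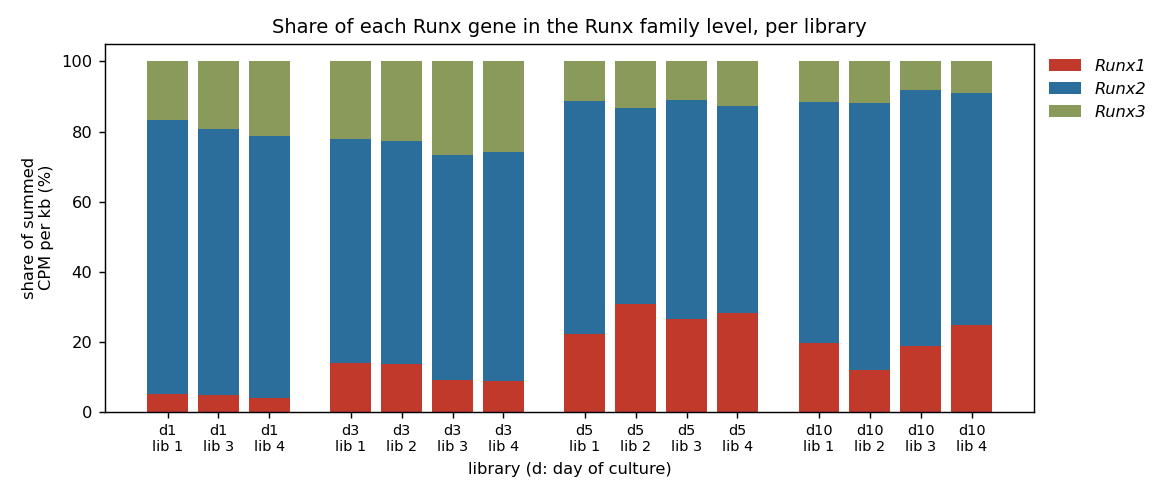
Stacked bars give the share (%) of Runx1, Runx2 and Runx3 in their summed CPM per kilobase, 1 bar per library, grouped by day. The Runx1 part grows from 4.01 to 5.07% on day 1 to 22.3 to 30.7% on day 5, while Runx2 stays the largest part in every bar.

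Cbfb, which encodes the shared partner of the Runx proteins, had the narrowest relative spread of the 8 genes on day 3 (4.18% SD over mean) and a wide one on day 10 (35.8%). It lies on chromosome 8 at 105170674 to 105217989 (plus strand). Its libraries held 197, 176 and 196 CPM on day 1. Day 3 held 161, 156, 155 and 169.8 CPM and day 5 held 144, 116, 118 and 120.4 CPM. Day 10 held 165, 188, 122 and 76.4 CPM. The first 3 days stepped down without overlap, and day 10 spanned from the lowest value of the course to within the day 1 range. Day 5 was lower than day 1 (-0.61 ± 0.21, adjusted p = 0.0284), and so was day 10 (-0.54 ± 0.21, adjusted p = 0.0495). The day 5 call was lost without library 1 or 4 of day 1 or library 2, 3 or 4 of day 5 (adjusted p = 0.056 to 0.0806) and without the libraries numbered 1 or 3 of every day (0.0885 and 0.127). Averaging libraries 3 and 4 of each day also lost it. The day 10 call was lost in 23 of 30 alternatives, including edgeR (-0.44, adjusted p = 0.0966). Without library 4 of day 10 the difference was -0.28 (adjusted p = 0.0963), and that of day 5 against day 3 passed (-0.37, adjusted p = 0.0488). Per kilobase, Cbfb stood highest of the 8 genes on every day by its mean. Its ratio to the summed Runx level was 1.82 ± 0.209 on day 1 (SD, n = 3), 3.34 ± 0.582 on day 3, 1.74 ± 0.302 on day 5 and 0.973 ± 0.238 on day 10 (n = 4 each). The day 3 ratios, 2.79 to 3.87, lay above and the day 10 ratios, 0.759 to 1.29, below those of the other days.

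Sp7 had the largest late rise of the 8 genes. It lies on chromosome 15 at 102356606 to 102367182 (minus strand). The day 1 libraries held 1.58, 3.60 and 3.28 CPM, or 26 to 53 reads, and the day 3 libraries 1.38, 1.102, 0.297 and 0.712 CPM, all lower. On day 5 libraries 1 and 2 held 6.02 and 5.59 CPM while libraries 3 and 4 held 0.305 and 0.659 CPM. On day 10 libraries 1 and 2 held 76.3 and 214 CPM and libraries 3 and 4 held 11.6 and 12.4 CPM. Every day 10 library was above every library of the earlier days, with an 18.6-fold spread inside day 10. Sp7 rose by 3.69 ± 0.78 from day 5 to day 10 (log2, adjusted p = 0.0138) and by 3.46 ± 0.84 from day 1 to day 10 (adjusted p = 0.00321). The first call was lost with libraries 3 and 4 of each day averaged (adjusted p = 0.071), without library 3 or library 4 of day 5 (0.0551 and 0.0522) and without the libraries numbered 1, 3 or 4 of every day (0.0754, 0.0591 and 0.0939). The second was lost without the libraries numbered 1 (2.90, adjusted p = 0.0548). The early fall did not pass (-1.02 ± 0.84, adjusted p = 0.382), and its 95% interval of -2.81 to 0.77 allows a sizeable change either way. For day 5 against day 1 libraries 3 and 4 alone gave -1.59 and libraries 1 and 2 alone 1.397, of the opposite sign. These subsets were formed after the values were seen, so the differences are a description. Per kilobase Sp7 was the lowest of the 8 genes by its mean on days 1, 3 and 5 and behind only Cbfb and Runx2 on day 10, at 23.2 CPM per kilobase with a range of 3.403 to 63.1. It overlapped there with Runx2, Dlx5, Dlx3, Runx1, Runx3 and Cbfb.

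The Dlx genes did not move as a block. Dlx3 and Dlx5 fell by day 3, and Dlx6 did not pass the test in any comparison. Dlx3, known from hair, teeth and osteoblasts, lies on chromosome 11 at 95120119 to 95125296 (plus strand). It went from 14.4, 20.6 and 24.1 CPM on day 1 to 1.33, 3.07, 3.57 and 2.92 CPM on day 3, the largest early fall of the 8 genes (-2.49 ± 0.60, adjusted p = 0.00594). That call was lost without the libraries numbered 1 or 4 of every day (adjusted p = 0.0675 and 0.051). It stayed low on day 5 at 4.05, 6.34, 2.74 and 2.58 CPM (-2.10 ± 0.60 against day 1, adjusted p = 0.00895), a call lost without the libraries numbered 4 (0.0882). The day 5 call was also lost with libraries 3 and 4 of each day averaged. On day 10 libraries 1 and 2 held 18.2 and 70.9 CPM and libraries 3 and 4 held 4.92 and 8.13 CPM. Library 2 alone was above the day 1 range, library 1 within it and the other two below it. Day 10 exceeded day 3 (2.20 ± 0.55, adjusted p = 0.0116), a call lost without the libraries numbered 1 or 4 (0.0962 and 0.0586). Day 10 against day 5 missed the threshold (1.81 ± 0.55, adjusted p = 0.067), and passed with the library number as a block (adjusted p = 0.0286), with edgeR on whole reads (2.71, adjusted p = 0.0274) and without library 3 of day 10 (2.30, adjusted p = 0.0163). The day 10 minus day 1 difference was -0.29 ± 0.60 (95% interval -1.57 to 0.98), and without library 2 of day 10 it was -1.001 (adjusted p = 0.0433).

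Dlx5 lies on chromosome 6 at 6877805 to 6882085 (minus strand). Its day 1 libraries were close together at 33.8, 32.0 and 35.8 CPM. Day 3 held 15.6, 22.6, 15.2 and 12.5 CPM, all lower (-1.02 ± 0.26, adjusted p = 0.00849), although without the libraries numbered 1 or 3 of every day the adjusted p was 0.0591 and 0.0751. Day 5 held 21.4, 17.8, 10.98 and 8.81 CPM, also all below day 1 (-1.22 ± 0.26, adjusted p = 0.00135). On day 10 the libraries held 27.9, 33.0, 22.8 and 19.3 CPM, which reached back to the day 1 range in library 2. Day 10 against day 5 missed the threshold (0.81 ± 0.24, adjusted p = 0.0609). It passed with the library number as a block (adjusted p = 0.00951), without library 1 or 2 of day 5 (0.0269 and 0.0495) and without library 4 of day 10 (0.0485). Day 10 against day 3 was 0.62 ± 0.24 (adjusted p = 0.0794) and passed without library 2 of day 3 (0.77, adjusted p = 0.0395).

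Dlx6 lies on the same chromosome at 6863334 to 6868568 (plus strand), beside Dlx5. It was low throughout, with 31 to 95 reads per library, and held 1.89, 3.74 and 3.71 CPM on day 1. Day 3 held 3.09, 2.91, 3.87 and 3.70 CPM, day 5 held 2.53, 2.30, 2.13 and 2.52 CPM, and day 10 held 4.24, 5.45, 4.39 and 3.16 CPM. All day 10 libraries were above all day 5 libraries. That difference was 0.64 ± 0.19 (adjusted p = 0.0558) and passed with the library number as a block (adjusted p = 0.0429), without library 1 of day 1 (0.0356) and without library 4 of day 10 (0.033). Without that library day 10 also exceeded day 1 (0.50, adjusted p = 0.0498), where all libraries gave 0.39 ± 0.20 (adjusted p = 0.121). Of its 2375 exon bases, 104 are shared with Dlx6os2 on the opposite strand, which held 0 to 3 reads in every library. The antisense gene Dlx6os1, which spans the locus, shares no exon bases with it and held 0.828 to 5.96 CPM. Per kilobase of exon, Dlx5 was at 15.0 ± 0.825 on day 1 (SD, n = 3 libraries) and Dlx6 at 1.31 ± 0.447.

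Across the 8 genes, the counts of called genes have to be read against a transcriptome in which many genes differed. On day 3 against day 1, 3 of 8 were called, all lower (Runx2, Dlx3 and Dlx5), where 31.8% of all tested genes were called, 15.7% higher and 16.1% lower. On day 5 against day 1 it was 6 of 8, with Runx1 higher and Runx2, Runx3, Cbfb, Dlx3 and Dlx5 lower, where 50.0% of all genes were called. On day 10 against day 1 it was 3 of 8, with Runx1 and Sp7 higher and Cbfb lower, where 49.4% were called. Day 5 against day 3 had 1 of 8 (Runx1), where 9.13% of all genes were called, and day 10 against day 3 had 4 of 8 (Runx1, Runx2, Sp7 and Dlx3, all higher), where 22.2% were. Day 10 against day 5 had 2 of 8 (Runx2 and Sp7, both higher), where 5.77% of all genes were called, 3.75% higher and 2.02% lower. With the library number as a block this last count was 5 of 8, among 1507 called genes in place of 699. Comparisons with a day in common share its libraries. The 8 genes were chosen with earlier results of these data known, so their counts beside these shares are a description.

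**Figure D3:**
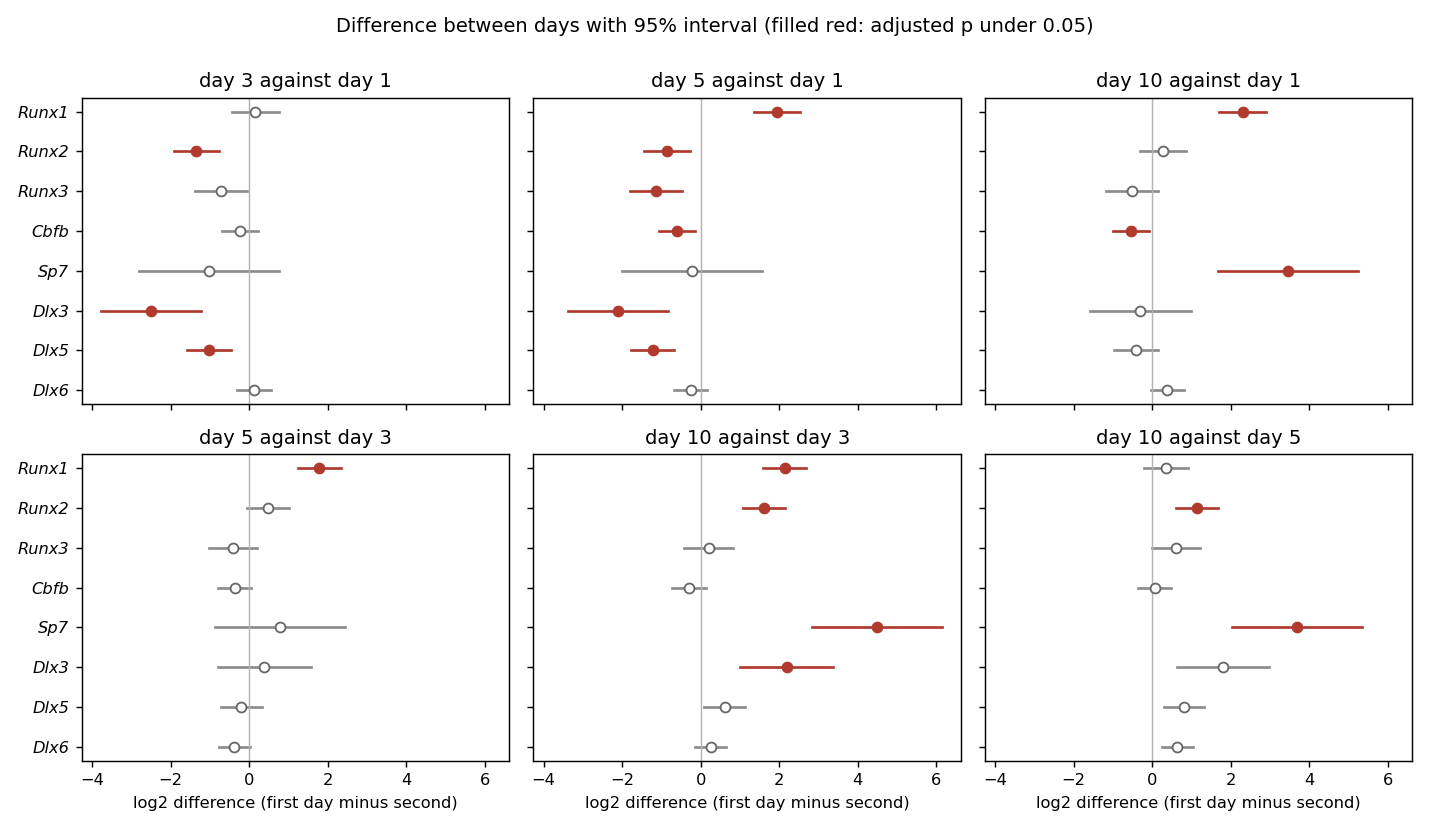
Log2 differences between days (first day minus second) with 95% intervals from the limma fit for the 8 genes, 1 panel per comparison, with genes past an adjusted p of 0.05 filled in red. Runx1 and Sp7 reach log2 differences of 2.31 and 3.46 on day 10 against day 1, while Runx2, Dlx3 and Dlx5 lie left of 0 on day 3 against day 1.

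For Runx2, Runx3, Cbfb, Sp7 and Dlx3 the libraries of day 10 were spread more widely on the log2 scale than those of any other day. The share of all tested genes with their widest spread on day 10 was not counted. The wide spread is thus not known to be particular to these regulators. In 7 of the 8 genes libraries 1 and 2 of day 10 were both above libraries 3 and 4, against 22.4% of all tested genes. Dlx6 was the exception. The mean of libraries 1 and 2 was 12.2 times that of libraries 3 and 4 for Sp7, 6.83 times for Dlx3, 2.71 times for Runx3 and 2.11 times for Runx2, and 1.38 times for Runx1. On day 5 the same order held in 6 of the 8 genes, with a ratio of 12.05 for Sp7, and among all tested genes in 22.2%. On day 3 it held in 5 of 8, against 26.7% of all genes. The labels do not say what the numbers stand for, so no more can be said here of how these libraries differ.

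Of 21 tested osteoblast targets, 11 had both libraries 1 and 2 of day 10 above libraries 3 and 4, and of 14 tested hypertrophic targets 9 had. The reverse order held in 1 and 2 of them. Among all tested genes 22.4% had the first order and 21.9% the reverse. Alpl, Ibsp and Panx3 had the first order and stand in both lists, so the counts are not independent. Bglap and Ifitm5, also counted, passed the filter on low values only through day 10, where their level came mainly from libraries 1 and 2. The filter itself thus favoured the first order for them. Ibsp, which encodes bone sialoprotein, held 324, 1824, 35.5 and 19.7 CPM in libraries 1 to 4, and Alpl, the alkaline phosphatase of mineralising cells, held 297, 664, 51.7 and 48.2 CPM. Mmp13 and Pth1r kept this order too, with ratios of 3.29 and 3.58, while Spp1, Col1a1 and Dmp1 did not keep it. The cartilage genes Sox9 and Col2a1 ran the other way. Sox9 held 115, 64.8, 224 and 287 CPM and Col2a1 held 2135, 1262, 5271 and 12719 CPM. Sox5, Col9a1, Col11a1 and Matn1 of the same list also ran the other way. Sox6, another of that list, did not. It held 115.9, 87.9, 77.0 and 76.5 CPM, with libraries 1 and 2 above libraries 3 and 4. Col10a1, the collagen of hypertrophic chondrocytes, held 8.11 and 7.63 CPM in libraries 1 and 2 and 51.2 and 59.6 CPM in libraries 3 and 4. The libraries highest in Sp7 and Runx2 were thus the lowest in Col10a1. The summed level of the 9 cartilage genes ran between 2230 and 15946 CPM at day 10, beside 4967 and 5713 CPM as the limits at day 1. The part of these differences in the results for the regulators was not tested.

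**Figure D4:**
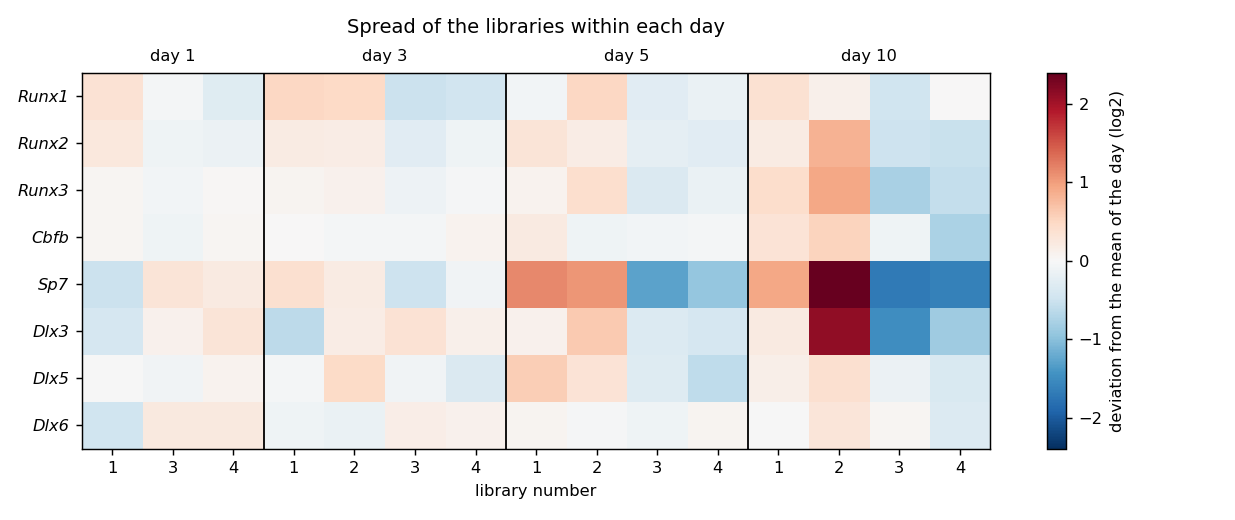
Each cell is the deviation of a library from the mean of its day in log2(CPM + 1), red above and blue below, with the 8 genes in rows and the 15 libraries in columns by day. The widest deviations are those of Sp7 and Dlx3 on day 10, where libraries 1 and 2 lie above the mean of the day and libraries 3 and 4 below it.

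Several genes of the osteoblast and hypertrophic lists rose between days 5 and 10. They are called targets by the name of their list, and their regulation by the 8 factors was not tested. The lists were chosen with earlier results of these data known, and the osteoblast and hypertrophic lists share 4 genes. Between days 5 and 10, 9 of the 21 tested osteoblast targets rose and 1, Enpp1, fell, where 3.75% of all tested genes rose and 2.02% fell. The list median was 1.79 (log2), beside -0.02 over all genes tested. Of the 14 tested hypertrophic targets 7 rose and 0 fell, with a median of 1.94. Some of these genes passed the filter on low values only through day 10 and so had to be higher there. They were 3 osteoblast targets (Bglap, Bglap2 and Ifitm5), of which 1 rose by the test, and 3 hypertrophic targets (Mmp13, Ihh and Galnt3), which all rose. Among the others, 8 of 18 osteoblast and 4 of 11 hypertrophic targets rose. Named targets that rose were Alpl (4.69 ± 0.82, adjusted p = 0.00419), Ibsp (4.57 ± 1.12, adjusted p = 0.0273), Mmp13, a collagenase of hypertrophic cartilage (2.75 ± 0.45, adjusted p = 0.00265), and Pth1r, the receptor for parathyroid hormone-related protein (2.17 ± 0.49, adjusted p = 0.0189). Phospho1, a phosphatase of matrix vesicles, rose by 2.74 ± 0.43 (adjusted p = 0.0019) and Cdh11, a cadherin of osteoblasts, by 2.45 ± 0.56 (adjusted p = 0.0201). Col1a2 did not pass (2.08 ± 0.86, adjusted p = 0.158), nor did Vdr, the vitamin D receptor gene (-0.29 ± 0.14). Over the whole course from day 1 to day 10, 16 of the 21 osteoblast targets rose and 1 (Vdr) fell. Of the 14 hypertrophic targets 10 rose and 1 (Col10a1) fell, where 24.3% of all genes rose and 25.1% fell. The 3 osteoblast and 3 hypertrophic targets that passed the filter only through day 10 all rose. Without them 13 of 18 osteoblast and 7 of 11 hypertrophic targets rose.

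On day 3 against day 1, when Runx2, Dlx3 and Dlx5 fell, 5 of the 21 osteoblast targets rose and 2 fell, and 3 of the 14 hypertrophic targets rose and 2 fell. Over all genes 15.7% rose and 16.1% fell, so these small counts are near the background. The osteoblast targets that rose were Enpp1 (1.93), Phospho1 (1.80), Fam20c (1.78), Pdgfra (0.86) and Sparc (0.84). The hypertrophic targets that rose were Pth1r (2.05), Adamts4 (1.18) and Lamp1 (0.46). Those that fell were Alpl (-3.41 ± 0.88, adjusted p = 0.00891), Vdr (-0.81 ± 0.15, adjusted p = 0.0012) and Col10a1 (-4.28 ± 0.58, adjusted p = 9.75e-05). Alpl stands in both lists.

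Among 23 osteogenic cofactors, Yap1, the Hippo pathway coactivator, rose between days 5 and 10 (1.57 ± 0.19, adjusted p = 0.000369), beside a list median of -0.09. Tcf7, a Wnt effector, held 84.9, 194.8, 7.69 and 6.33 CPM on day 10, with the same library order as Sp7, and did not pass for day 10 against day 5 (2.60 ± 0.79, adjusted p = 0.0647). Over the whole course the cofactors went both ways, with 7 of 23 higher and 4 lower, near the 24.3% and 25.1% of all genes. Zbtb16, a zinc finger factor of osteogenic cultures, rose by 2.76 ± 0.35 (adjusted p = 1.69e-05), while Msx2 fell by 1.52 (± 0.18, adjusted p = 1.35e-05) and Ets1 by 1.34 (± 0.09, adjusted p = 1.08e-07).

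**Figure D5:**
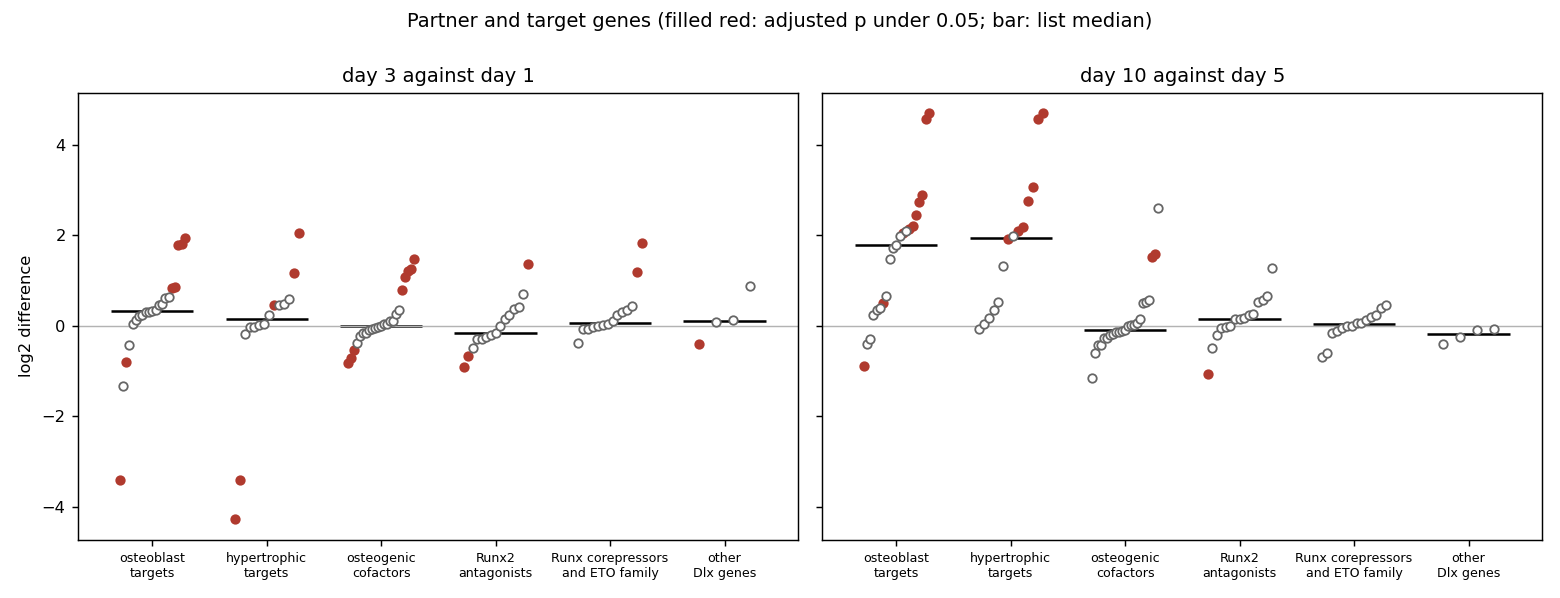
Log2 differences of the tested genes of 6 lists for day 3 against day 1 and day 10 against day 5, 1 point per gene, filled in red where the adjusted p was under 0.05, with a bar at the list median. In the right panel the osteoblast and hypertrophic targets have medians of 1.79 and 1.94, and the medians of the other lists lie between -0.17 and 0.15.

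The genes whose course was most like that of each regulator were found by Pearson's r of log2(CPM + 1) over the 15 libraries. These values are a description, since libraries of a day share their day, and a second r over deviations from the day means is given in brackets. Sp7 was closest to Smpd3 at 0.959 (0.925), a sphingomyelinase gene of skeletal mineralisation. Next were Galnt3 at 0.957 (0.915), a glycosyltransferase of phosphate regulation, and Kcnma1 at 0.950 (0.886), a potassium channel gene. Galnt3 (1.21, 1.32 and 1.17 CPM on days 1, 3 and 5) and Kcnma1 (0.117, 0.238 and 0.476 CPM) passed the filter only through day 10. Sp7 was highest there too, so the filter itself favoured a high r for these genes. Runx2 was closest to Specc1 at 0.976 (0.954), Adamtsl1 at 0.957 (0.844) and Alpl at 0.937 (0.795). Dlx3 also had Adamtsl1 among its nearest, at 0.923 (0.774), with Rras2 at 0.932 and Podnl1 at 0.929. Runx1 was closest to Larp6 at 0.972, an RNA-binding protein of collagen mRNAs, Aoc3 at 0.962 and Rassf2 at 0.959.

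Runx3 was closest to Me1 at 0.952, Mpi at 0.951 and Nsf at 0.939, and Cbfb to Mrps25 at 0.963, Abi2 at 0.961 and Rps6kb1 at 0.944. Dlx5 was closest to Sh3kbp1 at 0.926, Camk1d at 0.913 and Murc at 0.912, and Dlx6 to Nupr1 at 0.899, Vldlr at 0.865 and Ptgfr at 0.781. Among the regulators themselves Runx2 was nearest to Dlx3 at 0.895 (0.751) and Sp7 at 0.849 (0.896). Runx3 and Sp7 stood at 0.489 over the libraries and at 0.938 over deviations from the day means, so they shared the order of libraries within a day more than the course over days. Runx1 and Cbfb stood at -0.547 (0.117). The neighbours Dlx5 and Dlx6 stood at 0.358 (0.138).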

How the data were processed

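Per the submitters' processing notes, reads were handled with STAR, featureCounts and edgeR on GRCm38. The sources used here give no versions, annotation or strand setting. The deposited values are a normalized signal per gene on the CPM scale. Divided by the library's lowest value above 0, 100% of values came out whole (tolerance 0.001), which gave reads; edgeR on them called 736 to 6108 genes per comparison. The deposited signal was used unchanged as CPM. Gene coordinates and exon lengths come from GENCODE M21 (GRCm38), and the start sites and coordinates of the promoters from RefSeq.

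The mean of each day on log2(CPM + 1) was compared with limma 3.58.1 (trended prior, R 4.3.3), all 15 libraries in 1 fit, each as a replicate of its day, with Benjamini-Hochberg adjustment at 0.05. Alternatives were pseudocounts of 0.25 and 5, no filter or one of 5 CPM, DESeq2 1.42.0 size factors, edgeR 4.0.16 and DESeq2 on recovered reads, the library number as a block, libraries 3 and 4 averaged, and left-out libraries. Fits of libraries 1 and 2 or 3 and 4 alone were chosen after seeing the data. The scripts were tested on simulated data. Same-numbered libraries deviated together (r over genes above 0.1 in every pair) for days 1, 3 and 5 and for days 5 and 10, but not for day 10 against days 1 or 3. Library 4 was nonetheless closer to another number for day 3 against day 1 (r of 0.194 and 0.224 for the other), day 5 against day 1 (0.217 and 0.378) and day 5 against day 3 (0.424 and 0.492). Whether the numbers pair the libraries was thus not settled. The main fit ignored them, and the block served only as an alternative. Members and lists were chosen with earlier results of these data known. Named genes were the 8 regulators, the 3 highest and 3 lowest of each list for day 10 against day 1, members of small counts, the 3 nearest genes by r and genes sharing exon bases. Col2a1, Spp1, Col1a1, Dmp1, Bglap, Bglap2, Ifitm5 and Ihh were named after their values were seen. Some values of the marker and cofactor lists are not reported here.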

Additional observations from a re-analysis of the deposited data

Results flagged for a closer look

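Of 24 groups of 4 libraries (8 genes on days 3, 5 and 10), 1 held a library far from the others. Library 1 of day 5 held 144 CPM of Cbfb, and the gap to the next library was 0.832 of the range of the day on the log2 scale, just above Dixon's 95% limit for 4 values. Chance gives such a gap in about 1 of 20 groups.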

How the results depend on the processing

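For the 48 differences of the 8 genes, 1288 values under an alternative kept direction and side of the threshold, 71 lost the call, 40 gained it and 35 turned sign. None of those that turned sign was called with all libraries. The cause was not tested. The differences of Runx1 between days 5 and 1, 10 and 1, and 10 and 3, and of Runx2 and Sp7 between days 10 and 3, passed in all 30 alternatives, and that of Sp7 ran from 3.02 to 6.51. Dlx6 has no value under the 5 CPM filter. In the fits of libraries 1 and 2 alone, day 1 has 1 library, which is assumed to vary like the other days.

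With libraries 3 and 4 alone the sign turned for Runx1 day 3 against day 1 (-0.16), Runx2 day 10 against day 1 (-0.12), Runx3 and Dlx6 day 10 against day 3 (-0.39 and -0.014), Cbfb day 10 against day 5 (-0.30), and Sp7 and Dlx3 day 5 against day 3 (-0.019 and -0.21). With libraries 1 and 2 alone it turned for Runx3 day 10 against day 1 (0.12), Cbfb day 10 against day 3 (0.15), Sp7 day 5 against day 1 (1.397), Dlx3 day 10 against day 1 (1.27), Dlx5 day 5 against day 3 (0.051) and Dlx6 day 5 against day 1 (0.24). Sp7 day 5 against day 1 also turned with edgeR (0.19), DESeq2 (0.17) and averaged libraries (0.27), and Dlx3 day 10 against day 1 with edgeR (0.40), DESeq2 (0.41) and averaged libraries (0.20). Leaving out a library or a library number turned Runx1 day 3 against day 1 (-0.0049), Runx3 day 10 against day 3 (-0.11 and -0.075), Cbfb day 10 against day 5 (-0.14 to -0.042), Sp7 day 5 against day 1 (0.083, 0.19, 0.20 and 0.35), Dlx3 day 10 against day 1 (0.14, 0.20 and 0.25), Dlx5 day 5 against day 3 (0.0026) and Dlx6 day 3 against day 1 (-0.11 and -0.079). Without library 2 of day 10 the Cbfb value was -0.11. With 1 library left out the far ends of these ranges were 0.33 (Runx1), 0.46 (Runx3), 0.32 (Cbfb), -0.61 (Sp7), -1.001 (Dlx3), -0.39 (Dlx5) and 0.25 (Dlx6).

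The number of genes called moved by over 1.5 times under some alternatives. The ranges given here for left-out libraries also hold smaller moves. For day 3 against day 1 it was 2490 with libraries 3 and 4 averaged, 123 with libraries 1 and 2 alone, 1552 to 4545 without 1 library number (1573 without number 1) and up to 4847 without 1 library. For day 5 against day 1 it was 1369 with libraries 1 and 2 alone and 3812 to 6810 with libraries left out, and for day 10 against day 1 it was 1113 and 3933 to 6857. For day 5 against day 3 it was 1666 with DESeq2, 1714 with the replicate block, 27 averaged, 0 with libraries 1 and 2 alone by limma (766 at an unadjusted p under 0.05), 2096 with libraries 3 and 4 alone and 9 to 1298 without 1 library number (720 without number 1), and 339 to 1791 without 1 library. For day 10 against day 3 it was 1026 averaged, 203 with libraries 1 and 2 alone, 4368 with libraries 3 and 4 alone and 818 to 3650 without 1 library number (855 without number 3), and 1548 to 3225 without 1 library. For day 10 against day 5 it was 1338 with DESeq2, 1507 with the block, 99 averaged, 14 with libraries 1 and 2 alone, 1447 with libraries 3 and 4 alone and 91 to 964 without 1 library number (98 without number 3 and 223 without number 1), and 258 to 989 without 1 library.

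Of the 8 regulators, 0 were called for day 3 against day 1 with libraries 1 and 2 alone, 5 with libraries 3 and 4 alone and 1 to 4 with libraries left out. For day 5 against day 1 it was 3 averaged, 1 with libraries 1 and 2 alone and 3 to 6 with libraries left out. For day 10 against day 1 it was 5 with the block, 6 with libraries 3 and 4 alone and 1 to 5 with libraries left out. For day 5 against day 3 it was 2 with the block, 0 and 3 with libraries 1 and 2 or 3 and 4 alone, and 0 to 2 with libraries left out. For day 10 against day 5 it was 5 with DESeq2, 5 with the block, 0 averaged, 1 and 4 with libraries 1 and 2 or 3 and 4 alone, and 0 to 4 with libraries left out.

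The block changed calls of Runx3 (-0.68, adjusted p = 0.0262) and Dlx5 (-0.54, adjusted p = 0.0222) for day 10 against day 1 and of Dlx5 for day 10 against day 3 (0.62, adjusted p = 0.0148). There same-numbered libraries did not deviate together in every pair, with r from -0.067 to 0.26 and -0.043 to 0.19. Beside these and the blocked values given with the results, it changed no call of the 8 genes. Depth limits Sp7 on days 3 and 5, where single libraries held as few as 4 and 5 reads.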

Other observations

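Dlx1 and Dlx2, best known from the forebrain and the pharyngeal arches, were lower on day 10 than on day 1 by -0.89 ± 0.14 (log2, adjusted p = 9.99e-05) and -0.67 ± 0.14 (adjusted p = 0.000917), at 10.02 and 19.5 CPM on day 10. Like Dlx3 and Dlx5, both were lower on day 5 than on day 1 (-0.49 ± 0.14, adjusted p = 0.00796, and -0.41 ± 0.14, adjusted p = 0.0204), and Dlx2 was lower on day 3 (-0.40 ± 0.14, adjusted p = 0.0346). Dlx4 held 0.892 to 3.05 CPM and did not pass (0.35 ± 0.25). Of 7 interneuron markers 2 were at 0 in every library and Gad1 and Gad2 at 0 in 14 of 15 each. Map2 held 7.92 to 72.3 CPM and fell with Dlx1 and Dlx2 from day 1 to day 10 (-2.30 ± 0.24, adjusted p = 3.26e-06), Lhx6 held 1.55 to 3.78 CPM and Tubb3 up to 45.0 CPM. The part of this in the Dlx results was not tested.

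Of the 14 tested corepressors and ETO family genes, 7 rose and 0 fell from day 1 to day 10, where 24.3% of all genes rose and 25.1% fell. Runx1t1, an ETO corepressor gene known from its fusion with RUNX1 in human leukaemia, rose by 1.48 ± 0.24 (adjusted p = 0.000161), Tle1, a Groucho corepressor, by 1.11 ± 0.30 (adjusted p = 0.00614) and Hdac7 by 0.96 ± 0.21 (adjusted p = 0.00179). Of the 15 tested Runx2 antagonists 5 rose and 3 fell, near those shares. Zfp521, a zinc finger antagonist of Runx2, rose from 44.2 to 137 CPM (1.61 ± 0.12, adjusted p = 2.13e-07), and the ubiquitin ligase gene Wwp2 fell from 367 to 165 CPM (-1.17 ± 0.14, adjusted p = 9.4e-06). Hes1, a Notch effector, held 6.52, 82.1, 1.94 and 2.18 CPM in the day 10 libraries, of which library 2 was also the highest in Sp7.

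Trp63 was the only epithelial gene of 8 to pass the filter and rose by 2.39 ± 0.25 from day 1 to day 10 (adjusted p = 3.39e-06). Over the same days 5 of 6 tested fibroblast and tendon genes rose, Col3a1 by 1.72 ± 0.27 (adjusted p = 0.000131). Of 4 tested adipocyte genes 2 rose and 1, Pparg, fell. Over all tested genes 24.3% rose and 25.1% fell. Their part in the results for the regulators was not tested.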
